A study of Mus musculus with 47 samples.

Results

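The genes described here are 31 genes of sterol and fatty acid synthesis, taken by gene symbol from a list and followed through every RNA-seq library of the study. All 31 were present among the 51912 genes of the tables from bone marrow-derived macrophages (BMDMs) and in each of the 4 tables from Raw264.7 cells, a mouse macrophage-like line, which list between 12771 and 23772 genes. By role they comprise 7 genes of the mevalonate part of the pathway, 3 that lead from farnesyl units to lanosterol, 8 that turn lanosterol into cholesterol, 6 for SREBP control and sterol transport, and 7 for fatty acid synthesis, elongation and desaturation.

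Macrophages make cholesterol from acetyl-CoA through mevalonate, isoprenoids, squalene and lanosterol, and they make fatty acids from the same precursor. Transcription of these enzymes is driven by the SREBP factors, which are carried out of the endoplasmic reticulum by SCAP when sterols are low and are held back by the INSIG proteins when sterols are high. Lipid synthesis is known to change when macrophages meet bacterial lipopolysaccharide (LPS) or the cytokine IL-4, and intermediates and oxysterols of the pathway act on inflammatory signalling.

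The study asked how ZMYND8, a nuclear reader of modified histones, and the NF-κB subunit p65 (gene Rela) shape gene expression in macrophages, and 12 of its 47 samples are RNA-seq libraries, 1 for each group. The 6 BMDM libraries came from C57BL/6 mice, either WT (Zmynd8 fl/fl littermates) or Zmynd8 cKO (the same floxed allele, exons 6 and 7, with Lyz2-Cre, which acts in myeloid cells). The marrow cells had been grown for 5 days with 20 ng/ml M-CSF and were left untreated (NT) or given 100 ng/ml LPS or 20 ng/ml IL-4 for 6 h, and RNA of 3 biological replicates was mixed before each library. Of the 6 Raw264.7 libraries, 3 are of a Zmynd8 KO line, the KO itself, the KO carrying WT Zmynd8, and the KO carrying D/E-A, in which acidic residues of the disordered region of ZMYND8 were replaced by alanine. The other 3 were LPS-treated and are of p65 KO cells, p65 KO cells carrying WT p65, and p65 KO cells carrying p65 with the lysine at K122 replaced by arginine (K122R). The deposited column taken for WT p65 does not itself name p65 KO. The reference of both p65 comparisons may therefore be the rescued line or cells that were never modified, which cannot be told apart here. The study places the lines carrying WT Zmynd8 and D/E-A under LPS but the labels of all 3 Zmynd8 lines name no treatment, and the dose and time of LPS for the Raw264.7 lines are not given in the sources used here.

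BMDM libraries held 22597408 to 28386612 counts and Raw264.7 libraries 15127110 to 21042624 reads. Zmynd8 was not called lower in any library labelled cKO, at 87.1 CPM (counts scaled to an equal total for every library) in WT and 81.5 in cKO untreated, 79.0 and 86.8 with LPS, and 128 and 151 with IL-4, so these counts per gene, which do not resolve the floxed exons, do not check the label. In the Raw264.7 cells, Rela stood at 50.6 RPM (reads scaled in the same way) in p65 KO, 102 with WT p65 and 351 with K122R, while Zmynd8 had a deposited value of 116 in the Zmynd8 KO library and 506 with WT Zmynd8 (-2.11 on the log2 scale of the value plus 1), of which the KO value was not a whole number of reads. All 7 macrophage markers were detected in every library, 1 of them at 3 reads or fewer in p65 KO and in K122R. The 8 neutrophil markers summed to 2.33 to 4.22 CPM in the untreated and LPS BMDM libraries, to 382 and 514 CPM in the IL-4 libraries, and to 4422 to 10353 RPM in the Zmynd8 lines. The Zmynd8 lines also held 337.8 to 460.2 RPM of Xist, of which the p65 lines had at most 3 reads each. The study names both sets of lines as Raw264.7 cells, and whether they are the same line was not tested. The BMDM libraries differed in Xist too, with 739.7 CPM in WT NT, 323 in cKO NT, 246 in WT LPS, 429 in cKO LPS, 1108 in WT IL-4 and 1057 in cKO IL-4. Its order across treatments was not the same in both genotypes, and its part in the members' values was not tested.

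Because nearly all members fell together with LPS, the promoters of every member with an entry were read from RefSeq (GRCm38.p6), which gave 32 windows, each 250 bases before to 50 after a start, for 24 of the 31 genes, Acat2 and Insig2 among them. The 7 members without a window were Fads1, Fdft1, Fdps, Scd1, Scd2, Sqle and Stard4. The sterol response motif TCACNCCAC bound by SREBP, searched on both strands like the others, lay in 1 of the 32 windows, that of Hmgcs1, and in 1.24% of all 32851 windows. The NF-Y motif CCAAT lay in 20 of the 32 windows (62.5%, against 37.4% of all) and the Sp1 motif GGGCGG in 24 (75%, against 35.7%). Both of these factors are known partners of SREBP at lipid synthesis genes, and a match of letters is a description of the window and does not show binding. The 150 bases before the start are printed for 4 genes that were lower after LPS and for Insig2, which was not, with matches on either strand in capitals. The Insig2 stretch belongs to the most upstream of its 3 listed starts, whose window held 3 CCAAT matches and no Sp1 match. Its other windows each held 1 Sp1 match and no CCAAT match.
Hmgcs1, chr13:119690201-119690350, plus strand: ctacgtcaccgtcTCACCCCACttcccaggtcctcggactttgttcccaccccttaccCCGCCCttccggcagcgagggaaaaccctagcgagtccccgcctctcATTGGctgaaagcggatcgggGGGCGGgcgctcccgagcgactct
Idi1, chr13:8885456-8885605, plus strand: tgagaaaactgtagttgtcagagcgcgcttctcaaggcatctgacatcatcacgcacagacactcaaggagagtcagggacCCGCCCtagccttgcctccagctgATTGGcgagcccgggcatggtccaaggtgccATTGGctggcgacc
Msmo1, chr8:64733579-64733728, minus strand: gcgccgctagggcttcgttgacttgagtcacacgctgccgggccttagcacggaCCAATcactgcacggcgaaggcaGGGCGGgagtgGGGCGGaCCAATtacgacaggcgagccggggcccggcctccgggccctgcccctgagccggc
Fasn, chr11:120824548-120824697, minus strand: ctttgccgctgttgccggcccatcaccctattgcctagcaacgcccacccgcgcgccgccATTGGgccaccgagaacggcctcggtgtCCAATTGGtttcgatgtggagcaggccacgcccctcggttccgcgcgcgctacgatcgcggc
Insig2, chr1:121332590-121332739, minus strand: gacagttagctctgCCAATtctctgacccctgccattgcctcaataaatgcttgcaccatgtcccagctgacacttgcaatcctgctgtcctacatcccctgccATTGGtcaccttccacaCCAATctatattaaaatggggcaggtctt
The SREBP motif of Hmgcs1 begins 137 bases before the start, and in the stretches of Hmgcs1 and Idi1 a CCAAT match on the other strand begins 45 bases before it. In Fasn, 2 CCAAT matches on opposite strands overlap, so the capitals there run together.

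In untreated WT BMDMs, levels between genes were compared in the deposited TPM (transcript abundance scaled by length). The highest were Msmo1 (86.6 TPM), the C4-methyl sterol oxidase, Fdps (83.7 TPM), which makes farnesyl diphosphate, the factor gene Srebf2 (57.3 TPM) and Sqle (50.3 TPM), the squalene epoxidase. The lowest were Elovl6 (1.91 TPM), Scd1 (3.14 TPM) and Acat2 (4.31 TPM), so the more abundant stearoyl-CoA desaturase in these macrophages was Scd2 (47.2 TPM). After LPS in WT, Msmo1 was still highest at 27.8 TPM, and Sqle had moved from the 4th to the 19th place among the 31 genes. After IL-4 in WT, Fdps (50.4 TPM) led, Scd2 had moved from the 6th to the 26th place and Mvd from the 21st to the 7th.

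The comparison of LPS with NT asks how the genes respond to an inflammatory stimulus. Nearly the whole set was lower after LPS. The members' CPM summed to 1579.9 in WT NT and 1437 in cKO NT, and to 499 and 500.5 after LPS. A gene was called in BMDMs when it differed by at least 1.2-fold on the log2 scale of CPM plus 1 with an adjusted p under 0.05 in an exact binomial test on reads, which compares these libraries and not the conditions, since each group has 1 library. Unless median ratio scaling or TPM is named, both that threshold and every log2 fold change given for BMDMs are on this scale. A fold printed for a single gene, such as 5.58-fold, is the ratio of its CPM with nothing added and is therefore somewhat larger. By that rule 29 of 31 members fell in WT and none rose, where 61.1% of the 12813 tested genes were called lower and 20.6% higher. In the libraries labelled cKO 29 fell and none rose, against 58.9% and 23.8% of all tested genes. A test over libraries was added after the data were seen, edgeR's quasi-likelihood test on all 6 BMDM libraries scaled by their totals, in which the effect of LPS is taken as shared by WT and cKO and genotype is a block. It called 27 of 31 members lower and none higher, against 47.7% and 14.7% of 13074 genes, and left out Acat2, Insig2, Pmvk (adjusted p = 0.0615) and Scd2 (adjusted p = 0.0607). At a 2-fold change or more, 22 members fell in WT and 24 in cKO, against 32.8% of tested genes in each. The median log2 fold change of the members was -1.85 in WT and -1.76 in cKO, and that of all tested genes -0.58 and -0.55. In bulk RNA, a smaller share of cells that express a gene and less of its RNA per cell cannot be told apart.

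**Figure D1:**
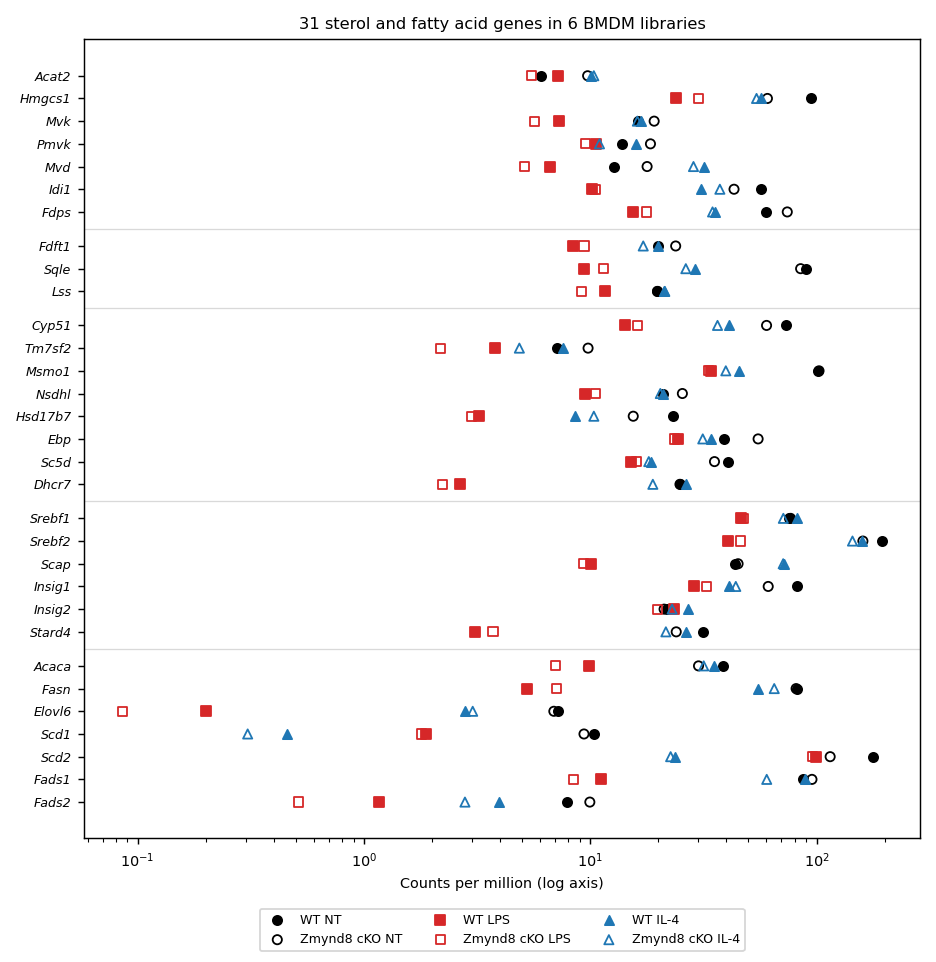
CPM of each member (log axis) in the 6 BMDM libraries, with genes grouped by role from the mevalonate part at the top to fatty acid synthesis at the bottom, filled symbols for WT and open symbols for libraries labelled Zmynd8 cKO. The LPS libraries (squares) are the lowest for most genes, Insig2 lies at 19.8 to 27.0 CPM in all 6, and Scd1 and Scd2 are lowest after IL-4 (triangles).

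In the mevalonate part, 6 of 7 genes fell with LPS in WT and 7 of 7 in cKO. Hmgcs1, the synthase that makes HMG-CoA, had 94.5 CPM in WT NT, 60.7 in cKO NT, 23.8 in WT LPS, 30.2 in cKO LPS, 56.8 in WT IL-4 and 54.3 in cKO IL-4. Both LPS libraries lay below the other 4, with a log2 fold change of -1.94 in WT (limits -2.07 to -1.82) and -0.98 in cKO (-1.11 to -0.86). All limits given are 95% intervals (Clopper-Pearson) of the read counts, which cover counting error only. Idi1, which isomerizes isopentenyl diphosphate, had 56.9 CPM in WT NT, 43.2 in cKO NT, 10.2 and 10.5 in the LPS libraries, and 30.9 and 37.4 in those given IL-4. Its fall was 5.58-fold in WT and 4.11-fold in cKO. Acat2, the cytosolic thiolase at the entry to the pathway, was the exception: it had 6.03 CPM in WT NT and 7.23 in WT LPS, which was not called, but 9.74 in cKO NT and 5.51 in cKO LPS, a fall of 0.72 on the log2 scale. Pmvk, the phosphomevalonate kinase, showed the smallest called fall of the WT comparison, -0.35, against -0.89 in cKO. Mvk, the mevalonate kinase, fell by 1.06 in WT and 1.59 in cKO, Mvd by 0.84 and 1.62, and Fdps by 1.89 and 2.01.

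Between squalene and lanosterol, all 3 genes fell in both genotypes. Sqle (chr15:59315092-59331193, plus strand) had 90.2 CPM in WT NT, 85.1 in cKO NT, 9.40 in WT LPS, 11.5 in cKO LPS, 29.1 in WT IL-4 and 26.4 in cKO IL-4. The 2 untreated libraries were thus the highest, the IL-4 libraries intermediate and the LPS libraries the lowest, and the fall with LPS was 9.60-fold in WT and 7.41-fold in cKO. Fdft1, the squalene synthase, and Lss, the lanosterol synthase, fell less, by 1.16 and 0.72 on the log2 scale in WT and by 1.26 and 1.03 in cKO.

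All 8 genes from lanosterol to cholesterol fell in both genotypes, with a median log2 fold change of -1.45 in WT and -1.68 in cKO. Dhcr7, the last reductase of the route through 7-dehydrocholesterol, had 24.8 CPM in WT NT, 24.9 in cKO NT, 2.65 in WT LPS, 2.22 in cKO LPS, 26.6 in WT IL-4 and 18.9 in cKO IL-4. It showed the deepest fall of this group, 9.36-fold in WT and 11.2-fold in cKO. Hsd17b7, a 3-ketosteroid reductase, and Cyp51, the lanosterol demethylase, fell by 2.52 and 2.28 on the log2 scale in WT. Ebp, the sterol isomerase, fell least there, by 0.65. The others fell by 1.54 in WT and 1.60 in cKO (Msmo1), 1.36 and 1.10 (Sc5d, the lathosterol oxidase), 1.06 and 1.201 (Nsdhl, a C4 decarboxylating dehydrogenase) and 0.77 and 1.76 (Tm7sf2).

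Of the 6 genes for SREBP control and sterol transport, 5 fell in both genotypes. Srebf2 (chr15:82147269-82205379, plus strand), the factor gene tied most closely to cholesterol synthesis, had 195 CPM in WT NT, 160.3 in cKO NT, 40.6 in WT LPS, 46.0 in cKO LPS, 159 in WT IL-4 and 144 in cKO IL-4. Both LPS libraries lay well below the other 4, a fall of 4.81-fold in WT and 3.48-fold in cKO. Srebf1, the factor gene tied more to fatty acids, fell less, by 0.69 on the log2 scale in each genotype, and Scap by 2.01 and 2.15. Stard4, which carries sterol between membranes, fell 10.2-fold in WT and 6.46-fold in cKO. Insig1, itself a target of SREBP, fell by 1.47 and 0.89. Insig2, the other retention protein, was called in neither, with 21.8 CPM in WT NT, 21.2 in cKO NT, 23.5 in WT LPS and 19.8 in cKO LPS.

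The fatty acid genes had the lowest median of the 5 groups, -2.04 in WT and -2.86 in cKO. Fasn (chr11:120805958-120824547, minus strand), the fatty acid synthase, had 82.1 CPM in WT NT, 81.2 in cKO NT, 5.26 in WT LPS, 7.08 in cKO LPS, 55.1 in WT IL-4 and 65.02 in cKO IL-4. The LPS libraries did not overlap with the others, and the log2 fold change of CPM plus 1 was -3.73 in WT (limits -3.95 to -3.51) and -3.35 in cKO (-3.56 to -3.14). The ratio of the CPM themselves was 15.6 in WT and 11.5 in cKO. Fads1, the delta-5 desaturase, fell by 2.86 in WT and 3.36 in cKO, Fads2, the delta-6 desaturase, by 2.04 and 2.86, Acaca by 1.85 and 1.96, and Scd1 by 1.98 and 1.89. Elovl6, which elongates palmitate, had 189 and 156 counts in the untreated WT and cKO libraries and 5 and 2 counts after LPS, which gave log2 fold changes of -2.77 (limits -2.97 to -2.45) and -2.86 (-2.98 to -2.56) on the scale of CPM plus 1. Scd2 was the least affected of this group: it had 177 CPM in WT NT, 115 in cKO NT, 99.4 in WT LPS and 95.8 in cKO LPS, which was called in WT (-0.82) and, at a fold just short of 1.2, not in cKO (-0.26). Scd1 and Scd2 are close paralogs, and how reads common to both were counted is not given in the sources used here.

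Of the 29 members called lower in each genotype, 28 were called in both, with Scd2 in WT alone and Acat2 in cKO alone. The libraries of these 2 comparisons are separate. Of all tested genes 61.1% were called lower in WT and 58.9% in cKO, and how many were called in both was not counted. Dividing by library totals gives all genes a median of -0.58 in WT, and scaling by the median ratio moves it to -0.07. On that scale 23 members were called lower and 2 higher in WT (background 40.1% and 34.8%), and 27 lower and 2 higher in cKO (40.4% and 37.0%), and the members' medians were -1.28 and -1.21. Insig2 was then called higher in both genotypes, at 0.69 and 0.45, with Acat2 (0.76) in WT and Scd2 (0.31) in cKO, while Pmvk in WT turned to 0.21. Scd2 (-0.22), Tm7sf2 (-0.26), Lss (-0.15) and Ebp (-0.06) were no longer called in WT, nor Acat2 (-0.22) in cKO, and Srebf1 was called in neither genotype (-0.09 and -0.12), so the falls given above for these genes depend on the scaling. On TPM, Lss in WT (-0.17) was not called either. The cell cycle list, beside which these values stand, had 4 of 8 genes lower and 1 higher in WT and 8 of 8 lower in cKO, and its part in the members' fall was not tested.

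**Figure D2:**
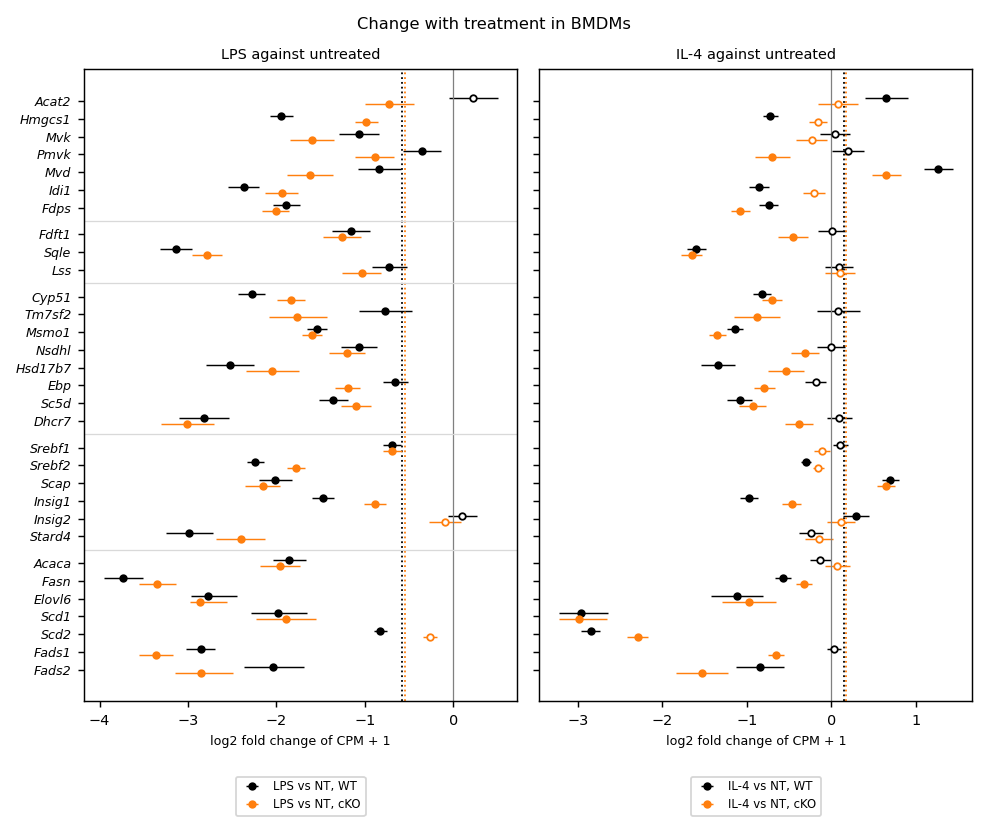
Log2 fold change of CPM plus 1 for each member with LPS (left) and IL-4 (right) against the untreated library, black for WT and orange for cKO; bars are 95% counting limits, filled points were called, open points were not, and dotted lines mark the median of all tested genes. Most members lie left of the dotted lines with LPS, Fasn reaching -3.73 in WT, whereas with IL-4 Scd1 and Scd2 lie far left and Mvd and Scap lie right of 0.

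Of 18 other genes of lipid synthesis outside the set, 16 were called lower and 2 higher with LPS in WT, where 61.1% of all tested genes were lower and 20.6% higher, and 15 and 2 in cKO, where 58.9% and 23.8% were. Mid1ip1, which activates acetyl-CoA carboxylase, fell from 77.3 to 7.11 CPM in WT. The 2 that rose in WT were Acss2, an acetyl-CoA synthetase, and Acacb, the second carboxylase. Among 8 genes of sterol outflow and oxysterols, 3 rose and 4 fell in WT and 5 rose and 2 fell in cKO, beside the same shares of all genes. Ch25h, which makes the oxysterol 25-hydroxycholesterol that restrains SREBP, rose from 0.687 to 154 CPM in WT and from 1.55 to 189 CPM in cKO. The cholesterol exporter gene Abca1 moved from 276 to 116 CPM in WT and from 91.9 to 139.6 CPM in cKO, so its WT fall and cKO rise started from unequal untreated levels.

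IL-4, the stimulus of alternative activation, gave a smaller and more mixed picture, with the deepest falls in the stearoyl-CoA desaturase genes Scd1 and Scd2. In WT 15 members fell and 4 rose, 1 of them (Mvd) by over 2-fold like 10.0% of tested genes, where 21.7% of 13090 tested genes were called lower and 38.6% higher, and in cKO 19 fell and 2 rose, against 24.8% and 42.2%. Of these, 7 in WT and 6 in cKO fell at least 2-fold, against 6.19% and 6.09% of tested genes, and none in cKO rose that far, where 15.0% did. In edgeR's test over the 6 libraries, with genotype as a block, 10 members were lower and 2 higher with IL-4, against 7.56% and 13.5% of genes. It left out Fasn (adjusted p = 0.132) and Insig1 (adjusted p = 0.0528), which the binomial rule had called lower in both genotypes. The members' median was -0.24 in WT and -0.45 in cKO, beside 0.15 and 0.17 for all tested genes. The IL-4 libraries bear sample index numbers from another range than the NT and LPS libraries, and IL-4 and that difference cannot be told apart. In both of them 7 of the 8 neutrophil markers were called higher than in the untreated library, to the summed levels given above, and 7 of the 8 cell cycle genes were higher too. The part of either in the members' values was not tested.

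Scd2 (chr19:44293676-44306864, plus strand) fell from 177 CPM in WT NT to 23.7 in WT IL-4 and from 115 in cKO NT to 22.7 in cKO IL-4, that is 7.47-fold and 5.07-fold. Scd1 went from 10.4 to 0.458 CPM in WT and from 9.38 to 0.306 in cKO, where the IL-4 libraries hold 13 and 8 counts. Both desaturases were lower after IL-4 than after LPS, the reverse of most members. Fasn fell by 0.57 and 0.32 on the log2 scale, and Elovl6 by 1.12 and 0.97. Acaca, the carboxylase that commits acetyl-CoA to fatty acids, was called in neither, with 35.1 CPM in WT IL-4 and 31.7 in cKO IL-4 against 38.5 and 30.1 untreated, although under median ratio scaling it was called lower in WT (-0.29) and on TPM higher in cKO (0.33).

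Among the sterol genes, Sqle fell 3.10-fold with IL-4 in WT and 3.22-fold in cKO, and Msmo1 2.24-fold and 2.58-fold. Msmo1 had 101 CPM in WT NT, 103 in cKO NT, 34.2 and 33.2 in the LPS libraries, and 45.3 and 39.7 in those given IL-4, so both untreated libraries lay above all treated ones. Mvd, the diphosphomevalonate decarboxylase, went the other way, with 12.7 CPM in WT NT, 17.8 in cKO NT, 6.67 and 5.12 in the LPS libraries, and 31.9 and 28.6 in those given IL-4. The IL-4 libraries were its highest and the LPS libraries its lowest, with a rise of 2.51-fold in WT and 1.60-fold in cKO. Scap also rose with IL-4 in both genotypes, from 43.7 to 71.5 CPM and from 45.0 to 71.2 CPM. Of the fallen members 12 were shared by WT and cKO, where 21.7% and 24.8% of all tested genes were called lower. How many of all genes were shared was not counted. Hmgcs1, Idi1 and Srebf2 were called lower in WT and not in cKO, and 7 genes (Dhcr7, Ebp, Fads1, Fdft1, Nsdhl, Pmvk and Tm7sf2) in cKO and not in WT, but these differences between genotypes were not tested. Under median ratio scaling Hmgcs1 (-0.35), Idi1 (-0.39) and Srebf2 (-0.35) were called lower in cKO too, and Ebp (-0.34) in WT too. On that scale the counts were 18 lower and 3 higher in WT (background 29.5% and 28.9%) and 25 lower and 2 higher in cKO (33.4% and 33.9%). On TPM they were 16 lower and 3 higher in WT (23.2% and 41.7%) and 14 lower and 7 higher in cKO (17.9% and 55.8%). In cKO on TPM, Dhcr7 was called higher (0.30). Ebp (-0.22), Fdft1 (-0.20) and Nsdhl (-0.06) were not called there, and Fads1, Pmvk and Tm7sf2 stayed lower.

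The comparison of libraries labelled Zmynd8 cKO with WT asks whether loss of ZMYND8 in macrophages alters these genes. In untreated cells 8 of 31 members were called higher in cKO and 9 lower, which is near the share of all genes, since 21.7% of 12463 tested genes were called higher and 25.9% lower. For a genotype effect common to the 3 treatments, with treatment as a block, edgeR's quasi-likelihood test over the 6 libraries called none of the members and 0 of the 13074 genes in either direction, with 408 genes and no member at an unadjusted p under 0.05. None of the calls in untreated cells was left, in either direction, in edgeR's exact test with an assumed biological variation of 0.2. That test called 0.65% of all tested genes higher and 1.54% lower. It also made no call among the members after LPS, where it called 0.178% and 0.121% of genes, or after IL-4, where it called 0.944% and 0.264%. No call among the members is thus near the share of all genes. The members' median was 0.00 beside -0.01 for all tested genes, and no member differed by 2-fold or more, which 0.971% of tested genes did upward and 2.86% downward. Lower in cKO were Hmgcs1 (-0.63, limits -0.73 to -0.54), Scd2 (-0.62), Hsd17b7 (-0.55), Insig1 (-0.41), Idi1 (-0.39), Stard4 (-0.37), Acaca (-0.34), Srebf2 (-0.28) and Cyp51 (-0.28). Higher were Acat2 (0.61, limits 0.35 to 0.88), Ebp (0.49), Mvd (0.46), Tm7sf2 (0.41), Pmvk (0.40), Fdps (0.31), Fads2 (0.30) and Nsdhl (0.27).

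The balance of these calls depended on the unit. On the deposited TPM, an alternative chosen after seeing the data, 17 members were lower and 1 (Acat2, 0.34) higher in untreated cKO, beside a median of -0.22 over all genes, of which 46.1% were lower and 13.6% higher. The 9 called lower on counts were among the 17, and 7 of the 8 called higher on counts were not called on TPM, although all 8 still had values above 0. All 8 cell cycle genes were called higher in untreated cKO, with a median of 0.74, and 5 of the 7 macrophage markers lower, with sums of 18054 CPM in WT and 14217 in cKO. Xist was lower in the untreated cKO library (-1.19), and Ebp and Nsdhl lie on chromosome X. The part of these in the members' values was not tested.

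After LPS, 2 members were called higher in the library labelled cKO, Fasn (0.37) and Hmgcs1 (0.33), against 17.1% of 12386 tested genes, and 5 were lower, Tm7sf2 (-0.59), Fads2 (-0.52), Acaca (-0.45), Fads1 (-0.37) and Lss (-0.31), against 8.76%. Elovl6 did not reach the mean of 10 counts needed for the test. Both counts depended on the method: under median ratio scaling 1 member was higher and 9 were lower (background 13.5% and 12.1%), and on TPM 6 were higher and 2 lower (30.0% and 10.9%), with Fasn at -0.15. After IL-4, 1 member was higher in cKO, Idi1 (0.27), against 13.8% of 13245 tested genes, and 5 were lower, against 10.5%: Fads1 (-0.56), Tm7sf2 (-0.55), Pmvk (-0.50), Dhcr7 (-0.47) and Stard4 (-0.28). Under median ratio scaling 0 were higher and 6 lower (background 12.8% and 11.4%), with Idi1 at 0.25. On TPM 2 were higher and 8 lower (17.6% and 16.2%). Fads1 after IL-4 had 89.0 CPM in WT and 60.2 in cKO, and 5 neutrophil markers and 6 cell cycle genes were called higher in the same cKO library. The 7 macrophage markers summed to 13029 CPM in WT LPS and 9397 in cKO LPS, with 1 called lower and 2 higher, and to 18384 and 14420 with IL-4, with 3 lower and 1 higher, and the part of these lists in the members' values was not tested. Tm7sf2, a sterol C14 reductase, was thus 9.78 CPM in cKO against 7.13 in WT untreated, 2.18 against 3.77 after LPS, and 4.86 against 7.61 after IL-4.

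**Figure D3:**
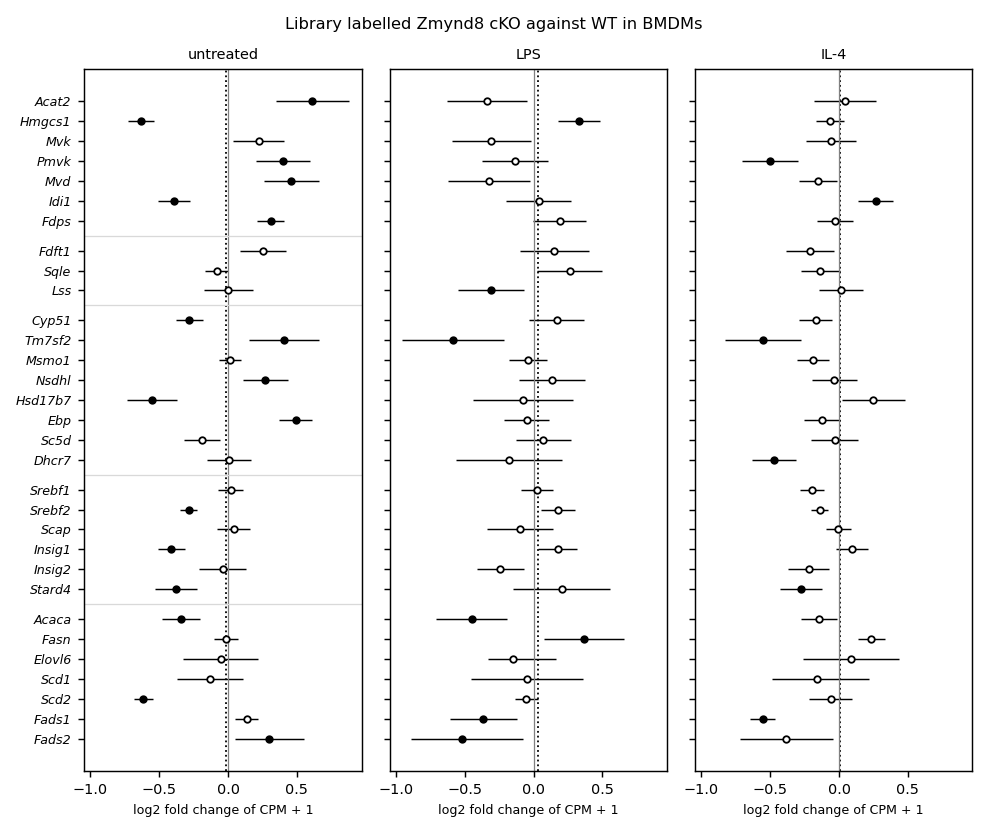
Log2 fold change of CPM plus 1 for each member in the library labelled Zmynd8 cKO against WT, untreated (left), with LPS (middle) and with IL-4 (right); bars are 95% counting limits, filled points were called and dotted lines mark the median of all tested genes. Points lie on both sides of 0 in untreated cells, from -0.63 for Hmgcs1 to 0.61 for Acat2, and no point reaches a log2 fold change of 1 in size.

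The Raw264.7 tables give 1 signal value per gene and library, which equals reads divided by a size factor, and genes were called there on a fold of at least 1.2 of the value plus 1, with no test. The D/E-A line compared with the line carrying WT Zmynd8 asks what the acidic residues of the disordered region contribute. In D/E-A 17 members were higher and 4 lower, against 36.7% and 35.9% of 12771 genes, and the members' median was 0.32 beside 0.02. Idi1 differed most, with a value of 182 in WT Zmynd8 and 486 in D/E-A (1.41, limits 1.17 to 1.68). Hsd17b7 (1.21) and Elovl6 (1.03) also passed 2-fold, as 6.94% of genes did, and Pmvk alone did so downward, as 11.4% did. All 6 SREBP control genes had positive values and 5 were called: Srebf1 (0.89), Scap (0.75), Srebf2 (0.74, from 1645 to 2756), Insig1 (0.33) and Insig2 (0.28). The mevalonate part was divided, with Pmvk (-1.10, from 492 to 229), Mvd (-0.73), Acat2 (-0.32) and Fdps (-0.29) lower while Idi1 and Hmgcs1 (0.51) were higher.

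In the Zmynd8 KO line against the same WT Zmynd8 library, which both comparisons share, 16 members were higher and 1 lower, against 33.8% and 36.5% of 21302 genes, and the median was 0.30 beside -0.03. Idi1 again differed most, from 194 to 420.03 (1.11), and with Lss (1.08) it passed 2-fold, as 8.29% of genes did upward and 17.3% downward. They were followed by Tm7sf2 (0.95), Scap (0.83) and Fads2 (0.83), and Pmvk was lower (-0.59, from 526 to 350.02). On reads recovered from the values and divided by library totals, 12 were higher and 2 lower, against 21.3% and 21.4% of 14525 genes. In both comparisons the WT Zmynd8 library had the highest neutrophil markers: they summed to 10353 RPM there, 6966 in the KO and 4422 in D/E-A, with 5 of 8 genes lower in the KO and 8 of 8 in D/E-A. In the KO, 3 of 3 T cell markers (4.84 RPM in WT Zmynd8 and 0.238 in the KO, at most 3 reads each there) and 3 of 4 B cell markers were also lower, and in D/E-A 4 of 4 dendritic cell markers. The 7 macrophage markers were all higher in both, summing to 4289 in WT Zmynd8, 5637 in the KO and 8682 in D/E-A. Of the 8 cell cycle genes, 5 were higher and 1 lower in the KO (median 0.27), and 2 were higher and 2 lower in D/E-A (median 0.04). Whether these bear on the members' values was not tested.

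The p65 lines address whether acetylation at K122 or the loss of p65 matters under LPS. In K122R 14 members were lower and 5 higher than with WT p65, against 32.5% and 30.8% of 19670 genes, and the median was -0.20 beside 0.01. Elovl6 had a value of 335 with WT p65 and 145 with K122R (-1.20, limits -1.49 to -0.91). Acat2 (-1.03) and Scd1 (-1.02) were also lower by more than 2-fold, as 9.46% of genes were while 10.5% were higher, followed by Idi1 (-0.89), Hsd17b7 (-0.73), Pmvk (-0.73) and Stard4 (-0.72). Higher were Fads1 (0.68), Tm7sf2 (0.39), Mvd (0.37), Srebf1 (0.36) and Fdft1 (0.30), and the counting limits of Tm7sf2 and of Dhcr7 (-0.60) included 0. On recovered reads over library totals, on which all genes had a median of -0.14, 16 members were lower and 1 higher, against 30.0% and 12.0%. Of the 8 cell cycle genes, 7 were lower in K122R and none higher. Their part in this result was not tested.

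In p65 KO, compared with the same WT p65 library, 6 members were lower and 3 higher, against 25.7% and 26.3% of 19879 genes, with a median of -0.15 beside 0.01. Lower were Acat2 (-0.46), Acaca (-0.37), Idi1 (-0.35), Cyp51 (-0.31), Elovl6 (-0.30) and Stard4 (-0.28), and higher were Scd2 (0.43), Mvd (0.35) and Srebf1 (0.27). All 8 cell cycle genes had values below 0 there, with a median of -0.26, and 4 were called lower and none higher. Their part in these values was not tested. No member differed by 2-fold, which 9.26% of genes did upward and 6.58% downward. Set side by side, Idi1 stood at -0.89 in K122R and -0.35 in p65 KO, Scd1 at -1.02 and 0.06, Scd2 at -0.42 and 0.43, and Fads1 at 0.68 and -0.06.

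**Figure D4:**
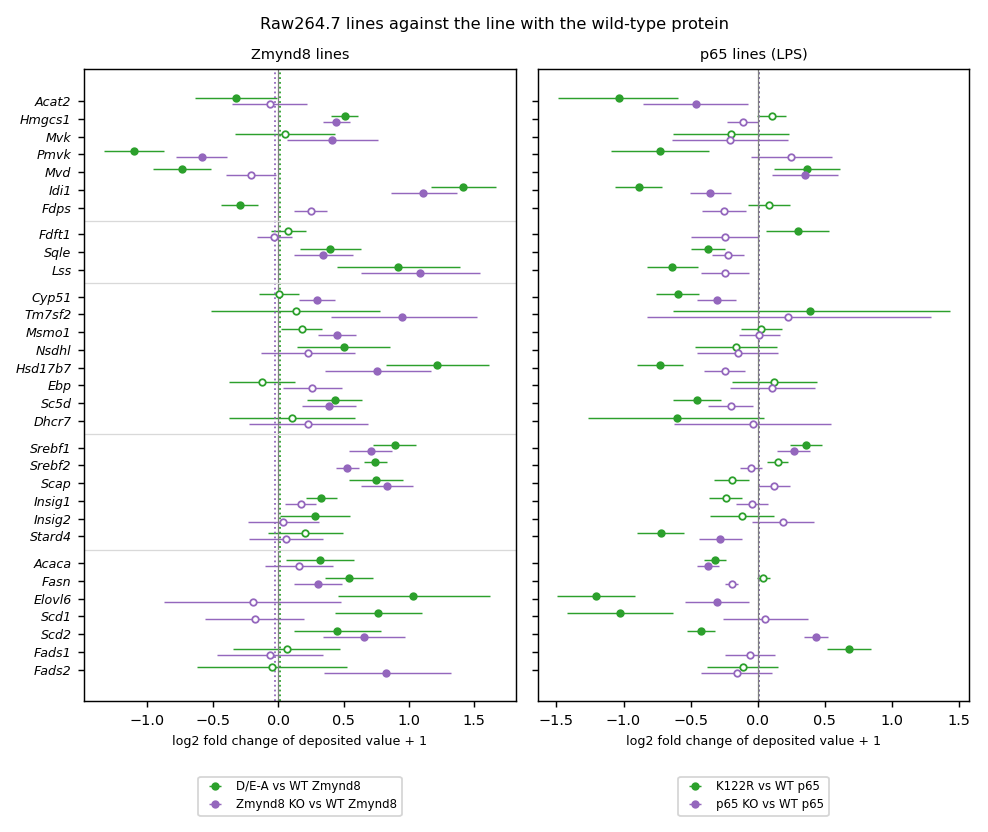
Log2 fold change of the deposited value plus 1 for each member, with D/E-A (green) and Zmynd8 KO (purple) against WT Zmynd8 on the left, and K122R (green) and p65 KO (purple) against WT p65 on the right; bars are 95% counting limits on the recovered reads, filled points passed 1.2-fold, and dotted lines mark the median of all genes. Most points lie right of 0 in the Zmynd8 lines, with Idi1 at 1.41 in D/E-A, and Elovl6, Acat2 and Scd1 lie farthest left in K122R.

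The sets of Raw264.7 lines differed most in the fatty acid genes, although the tables were normalized separately and the labels of the Zmynd8 lines name no treatment, so no test was made. The same sets differed in markers of other cells: the neutrophil markers summed to 0.180 to 0.319 RPM in the p65 lines, whose tables list 3 of the 8, against 4422 to 10353 in the Zmynd8 lines, and the B cell markers to 0.575 to 1.68 RPM (3 of 4 listed) against 119 to 161. The 7 macrophage markers summed to 1395 to 1533 RPM in the p65 lines and 4289 to 8682 in the Zmynd8 lines. The part of these in the members' levels was not tested. Fasn had 391 to 448 RPM in the p65 lines and 23.2 to 33.0 in the Zmynd8 lines. Acaca had 125 to 172 and 12.2 to 14.9, and Scd2 79.1 to 159 and 7.23 to 10.8. The 7 fatty acid genes together made up 695 to 818 RPM in the p65 lines and 59.6 to 81.1 in the Zmynd8 lines. In BMDMs they made up 409.7 CPM in untreated WT, 129 in WT LPS and 120.7 in cKO LPS. The 7 mevalonate genes lay closer, at 182 to 220.5 in the p65 lines and 203 to 228 in the Zmynd8 lines.

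**Figure D5:**
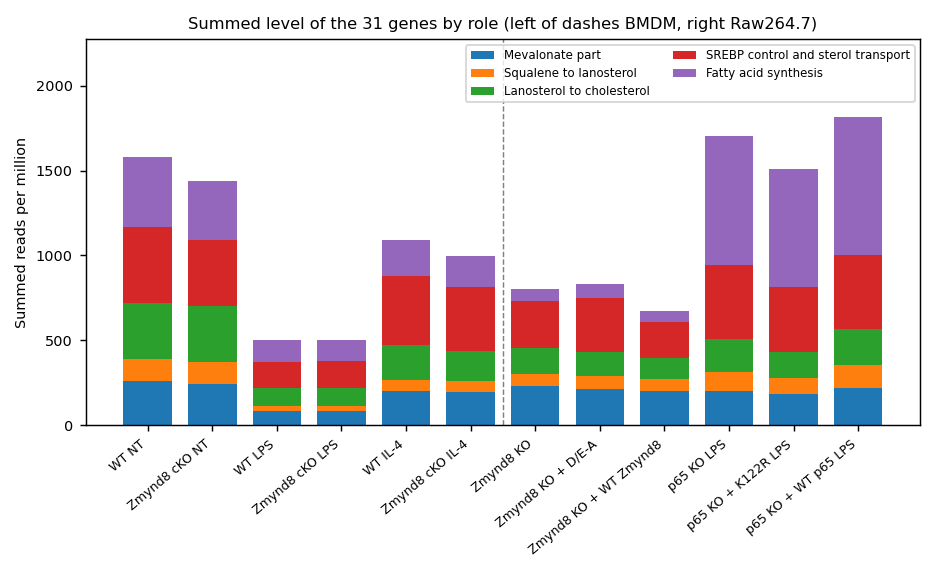
Summed CPM or RPM of the 31 genes in each of the 12 libraries, stacked by role, with BMDM libraries left of the dashed line and Raw264.7 libraries right of it. The LPS BMDM libraries are the lowest at 499 and 500.5, the p65 lines reach 1510.0 to 1818, and the fatty acid share (top) is small in the 3 Zmynd8 lines.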

How the data were processed

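RNA-seq tables of 12 libraries, 1 per group, were used, and 35 samples of other assays were not analysed here. For BMDMs the authors mapped reads by TopHat against mm10 transcripts and deposited TPM and estimated counts per gene, with the counting tool not given in the sources used here. The signal values that the authors deposited for Raw264.7 cells, 1 for each gene in a library, gave whole reads (within 0.05 of a read plus 1e-06 of the count) for all genes but 2, Actb and Zmynd8 in the Zmynd8 KO library, after division by a step per library; the processing of these tables is not given in the sources used here, and 2 unlabelled columns of values were not used. The deposited fold changes and p-values of the authors' own comparisons were not used. The members, roles and further lists were chosen with earlier results of these data known; all 31 members were to be named.

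Estimated counts were rounded, and table lines without a gene (431 in the NT and LPS tables, 2 in the IL-4 table) were dropped. BMDM genes whose mean reached 10 counts were called at a 1.2-fold change of CPM plus 1 on library totals and a Benjamini-Hochberg adjusted p under 0.05 in a two-sided exact binomial test over all tested genes. The design had assumed counts for Raw264.7 cells; their values (mean of at least 1) were called on 1.2-fold alone. Counting limits are 95% Clopper-Pearson limits. The test was tested on simulated data for 51912 genes: in LPS against NT in WT it called 97% of 2-fold and 86% of 1.5-fold changes rightly, and in cKO against WT with LPS 99% and 75%. These simulated libraries held counting error only, with no biological variation, and genes of low count were not among those changed. The rates therefore do not tell how the test does where libraries vary. Alternatives were median ratio scaling, a pseudocount of 0.1, no filter, a 2-fold threshold, edgeR's exact test at an assumed biological variation of 0.2, recovered reads over library totals and, added later, TPM and edgeR's quasi-likelihood test over the 6 BMDM libraries with genotype and treatment as additive terms, with the same totals, minimum and thresholds. On simulated data for LPS over both genotypes, with a biological variation of 0.2, it called 37% of 2-fold and 100% of 4-fold changes rightly among 51912 genes. Analyses used Python 3.11.15 with scipy 1.17.1 and R 4.3.3 with edgeR 4.0.16.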

Additional observations from a re-analysis of the deposited data

Results flagged for a closer look

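For 5 members the difference between the library labelled cKO and WT had opposite signs in different treatments, with a call in each, that is 16.7% of the 30 members tested in all 3 treatments, where 18.3% of all 11417 such genes had calls in both directions. None of these differences between treatments was tested, and each value rests on 1 library a group. Hmgcs1 was -0.63 on the log2 scale in untreated cells and 0.33 after LPS. Pmvk was 0.40 untreated and -0.50 after IL-4, and Idi1 was -0.39 untreated and 0.27 after IL-4. Tm7sf2 was 0.41 untreated, -0.59 after LPS and -0.55 after IL-4. Fads2 was 0.30 untreated and -0.52 after LPS. Some of these calls are lost under other settings. Under median ratio scaling Idi1 after IL-4 (0.25) was not called. On TPM the untreated values of Pmvk (0.15), Tm7sf2 (0.19) and Fads2 (0.07) were not called. Fads2 after LPS (-0.50), at 1.24 TPM in WT and 0.58 in cKO, did not reach the mean of 1 needed for a call. On TPM, Hmgcs1 and Idi1 thus had a call on each side. The edgeR test at an assumed variation of 0.2 called none of the 5 in any treatment.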

How the results depend on the processing

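No paired analysis was possible because every group has 1 library and the groups share only the replicate number 1, but the 6 BMDM libraries allow an additive fit in which genotype or treatment is the block, chosen after seeing the data. That edgeR test, with 2 residual degrees of freedom, called 2 members higher and 10 lower with IL-4, 0 higher and 27 lower with LPS, and 0 and 0 for cKO against WT, beside the shares of all genes given above. With 1 library a group, nothing can be computed without a replicate, and depth bears only on the counting error. Where a count moved by over 1.5 times the cause was not tested, except where a stricter threshold sets it. A 2-fold threshold left cKO against WT with 0 members higher and 0 lower in NT, LPS and IL-4, IL-4 against NT with 1 higher and 7 lower in WT and 0 and 6 in cKO, D/E-A with 3 and 1, Zmynd8 KO with 2 and 0, K122R with 0 and 3, and p65 KO with 0 and 0. At that threshold cKO against WT had 0.573% of all genes higher and 0.331% lower after LPS, and 1.56% and 0.408% after IL-4. The other shares at 2-fold are given above. The edgeR test at an assumed variation of 0.2 gave 0 and 0 in the 3 comparisons of cKO with WT, where it called at most 0.944% of all genes higher and 1.54% lower. For IL-4 it gave 1 higher and 7 lower in WT (background 11.4% and 6.62%) and 0 and 7 in cKO (16.7% and 6.72%). LPS against NT kept 22 lower in WT (background 39.4%) and 26 in cKO (38.9%). Median ratio scaling gave cKO against WT 1 higher and 9 lower after LPS (background 13.5% and 12.1%) and 0 higher after IL-4 (12.8%). It gave 2 higher for LPS in WT (34.8%) and 2 in cKO (37%). Pmvk turned to 0.21 for LPS in WT. With no filter, 1 member was higher in cKO after LPS, against 10.8% of all genes. On TPM, cKO against WT gave 1 higher and 17 lower in NT (background 13.6% and 46.1%), 6 and 2 with LPS (30% and 10.9%) and 2 and 8 with IL-4 (17.6% and 16.2%). LPS in cKO gave 1 higher (Insig2, background 30.4%) and IL-4 in cKO 7 higher (55.8%). Fasn turned to -0.15 in cKO against WT with LPS, and Dhcr7 to 0.30 for IL-4 in cKO. Recovered reads gave 2 lower in Zmynd8 KO (background 21.4%) and 1 higher in K122R (12%). The other counts stayed within 1.5 times.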
